A study of Mus musculus with 6 samples.

Results

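The distal-less homeobox (Dlx) genes were followed in RNA-seq of E12.5 maxillary processes, from mice that overexpress one of them, Dlx2, and from wild-type (WT) mice. The set comprised the rows of the count files whose symbol in the mm10 GENCODE annotation is Dlx1, Dlx1as, Dlx2, Dlx3, Dlx4, Dlx5, Dlx6 or Dlx6os1. These are 8 of the 53801 genes in the files, 6 of them protein-coding and 2 antisense RNAs. All 8 had enough counts to be tested, and Dlx4 reached that minimum through its Dlx2OE samples. The symbol Dlx6os1 is also carried by a short RNA entry (ENSMUSG00000098326) that had 0 counts in every sample and was not used.

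The series holds 6 samples in 2 groups of 3, all from embryos of C57BL/6J background at embryonic day 12.5. One group is labelled WT, with no further genotype. The other group, wnt1cre; Rosa26Dlx2/- (Dlx2OE), carries one copy of a CAG-LSL-Dlx2-3xFlag cassette in the Rosa26 locus together with wnt1cre, which removes the stop sequence in the neural crest lineage. Surface epithelium, endothelium and blood cells do not come from the neural crest, so the cassette is not expected to be active in these cells. The cassette holds the coding sequence of Dlx2, so that its transcripts and those of the endogenous gene were counted together on Dlx2. For the other 7 genes the counts describe the endogenous gene.

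DLX proteins are transcription factors that bind DNA through a homeodomain, with a preference for sites with the core TAATT. The coding genes lie in convergent pairs, Dlx1 with Dlx2, Dlx3 with Dlx4 and Dlx5 with Dlx6, and the genes of a pair share enhancers and much of their expression pattern. In the branchial arches the pairs are known for nested expression, with Dlx1 and Dlx2 in both the maxillary and the mandibular mesenchyme, and the other pairs mainly in the mandibular part. The antisense RNAs Dlx1as and Dlx6os1 (also known as Evf2) are transcribed from the strand opposite to Dlx1 and Dlx6, and Dlx6os1 is best known from the ventral forebrain, where it runs through an enhancer of the Dlx5/Dlx6 pair.

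The homeobox of each coding gene is shown because it is the part that the family shares, and because it shows how far reads of one paralog can be told from those of another. The sequences were taken from the GENCODE M21 transcripts of GRCm38 and are written 5′ to 3′ on the coding strand, in lower case, with capitals marking each base that differs from Dlx2. In every gene the stretch of 180 bases is split over exon 2 (132 bases) and exon 3 (48 bases). The position of the exon 2 part is given with each name.
Dlx2 (chr2:71545384-71545515, reverse): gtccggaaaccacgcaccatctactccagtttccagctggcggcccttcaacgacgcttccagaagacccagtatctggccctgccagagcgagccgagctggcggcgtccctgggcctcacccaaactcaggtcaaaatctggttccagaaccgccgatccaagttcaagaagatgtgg
Dlx1 (chr2:71531025-71531156, forward): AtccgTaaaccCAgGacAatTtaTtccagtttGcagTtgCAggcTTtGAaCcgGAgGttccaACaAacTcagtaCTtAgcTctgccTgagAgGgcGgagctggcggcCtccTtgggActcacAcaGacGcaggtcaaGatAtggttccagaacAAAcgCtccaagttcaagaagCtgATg
Dlx3 (chr11:95121767-95121898, forward): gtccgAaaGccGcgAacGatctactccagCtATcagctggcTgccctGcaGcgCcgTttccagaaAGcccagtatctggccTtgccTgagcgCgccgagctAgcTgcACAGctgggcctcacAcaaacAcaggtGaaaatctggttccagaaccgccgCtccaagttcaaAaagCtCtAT
Dlx4 (chr11:95141789-95141920, reverse): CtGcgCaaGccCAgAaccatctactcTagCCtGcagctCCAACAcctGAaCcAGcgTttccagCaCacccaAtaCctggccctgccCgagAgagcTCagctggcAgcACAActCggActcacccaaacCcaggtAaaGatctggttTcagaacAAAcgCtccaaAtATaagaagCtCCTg
Dlx5 (chr6:6879526-6879657, reverse): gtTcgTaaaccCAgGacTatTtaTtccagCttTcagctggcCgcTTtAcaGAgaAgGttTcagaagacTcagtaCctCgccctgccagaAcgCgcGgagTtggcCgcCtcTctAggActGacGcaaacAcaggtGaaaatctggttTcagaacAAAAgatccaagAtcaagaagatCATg
Dlx6 (chr6:6865140-6865271, forward): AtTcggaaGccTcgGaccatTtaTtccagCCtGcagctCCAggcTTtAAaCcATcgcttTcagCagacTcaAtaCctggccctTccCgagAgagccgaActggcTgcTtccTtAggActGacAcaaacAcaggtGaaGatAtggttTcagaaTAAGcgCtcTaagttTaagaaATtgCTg

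Dlx3 was the paralog closest to Dlx2 in this stretch, with 33 of 180 bases different, and Dlx4 the farthest, with 53. Between them came Dlx5 with 44 differing bases, Dlx1 with 47 and Dlx6 with 52. The order was not the same for the encoded residues, of which 4 of 60 differed from Dlx2 in Dlx5, 5 in Dlx3, 8 in Dlx1, 9 in Dlx6 and 13 in Dlx4. Across the 15 pairs of coding genes the homeobox was identical at 66.1% to 81.7% of bases. The longest run of identical bases between transcripts of any 2 of them was 11 to 23 bases, which is short beside the read length of 150 bases.

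Outside the homeobox, the windows before the RefSeq start sites of Dlx2 and Dlx6os1 are shown because they differ in the motif that DLX proteins prefer. Both strands of each 250-base window were searched for TAATTA and for TAATTG, which reads CAATTA on the other strand. Matches are in capitals, and the sequences run 5′ to 3′ on the strand of the gene in GRCm38.p6.
Dlx2 (chr2:71546755-71547004, reverse): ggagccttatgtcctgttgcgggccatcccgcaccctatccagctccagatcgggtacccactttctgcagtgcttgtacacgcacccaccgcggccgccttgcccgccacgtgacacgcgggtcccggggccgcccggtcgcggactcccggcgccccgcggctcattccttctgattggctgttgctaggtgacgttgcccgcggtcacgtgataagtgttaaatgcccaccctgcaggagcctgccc
Dlx6os1, start site 1 (chr6:6869534-6869783, reverse): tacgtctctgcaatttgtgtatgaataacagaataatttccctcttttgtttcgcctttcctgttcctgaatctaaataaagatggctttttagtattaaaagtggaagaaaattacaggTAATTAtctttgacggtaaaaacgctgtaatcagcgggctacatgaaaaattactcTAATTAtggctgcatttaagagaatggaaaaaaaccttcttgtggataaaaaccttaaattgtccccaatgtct
Dlx6os1, start site 2 (chr6:6861684-6861933, reverse): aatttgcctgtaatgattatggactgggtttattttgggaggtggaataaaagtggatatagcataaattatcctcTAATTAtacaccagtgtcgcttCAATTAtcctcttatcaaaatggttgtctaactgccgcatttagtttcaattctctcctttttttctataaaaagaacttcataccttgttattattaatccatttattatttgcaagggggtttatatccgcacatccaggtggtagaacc
The Dlx2 window had a GC content of 66.4% and held neither motif. Each of the Dlx6os1 windows, with a GC content of 33.2% and 34%, held 2 matches. Of the 32851 windows of this length in the RefSeq table, 11.3% held at least 1 match to either motif and 1.51% held 2 or more. These windows were not matched for GC content, so the shares are no measure for windows as low in GC as those of Dlx6os1. The Dlx1 window, with a GC content of 68%, held neither motif. The matches are letters in a window and were not tested for binding.

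Between 26155500 and 31308813 read pairs per sample were counted on genes, and levels are given as CPM, the counts scaled for sequencing depth by the TMM method. A count of 3 was taken as the detection floor, which equals 0.0955 to 0.111 CPM. The share of read pairs outside annotated exons was 5.03% to 5.43% in WT and 5.75%, 7.81% and 14.7% in Dlx2OE samples 1 to 3, so that Dlx2OE sample 3 stood apart. Genotypes were compared across 17514 genes with the quasi-likelihood test of edgeR and Benjamini-Hochberg adjustment. Upregulated and downregulated genes are those with an adjusted p under 0.05 whose log2 fold change was beyond 1 in size.

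To ask whether the rest of the family followed Dlx2, each gene was compared between the genotypes. Dlx2 was the single member that passed: 1 of 8 was upregulated and 0 were downregulated, beside 1.5% upregulated and 1.62% downregulated among all genes tested. Reads of the cassette are counted on Dlx2, so its place in this and the following shares is at least in part built into the construct. Of the other members, none was called by edgeR, and Dlx4 alone enters the shares that follow. An unadjusted p under 0.05 was reached by 2 of the 8, Dlx2 and Dlx4, a share near the 29.5% of all genes tested. DESeq2 called both, beside 2.35% of its genes called upregulated. These were also the 2 genes whose samples did not overlap between the genotypes, which was the case for 34.1% of all genes tested (16.7% with all Dlx2OE samples higher and 17.3% with all lower). The fitted log2 fold change was above 0 for 5 members and below 0 for 3.

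**Figure D1:**
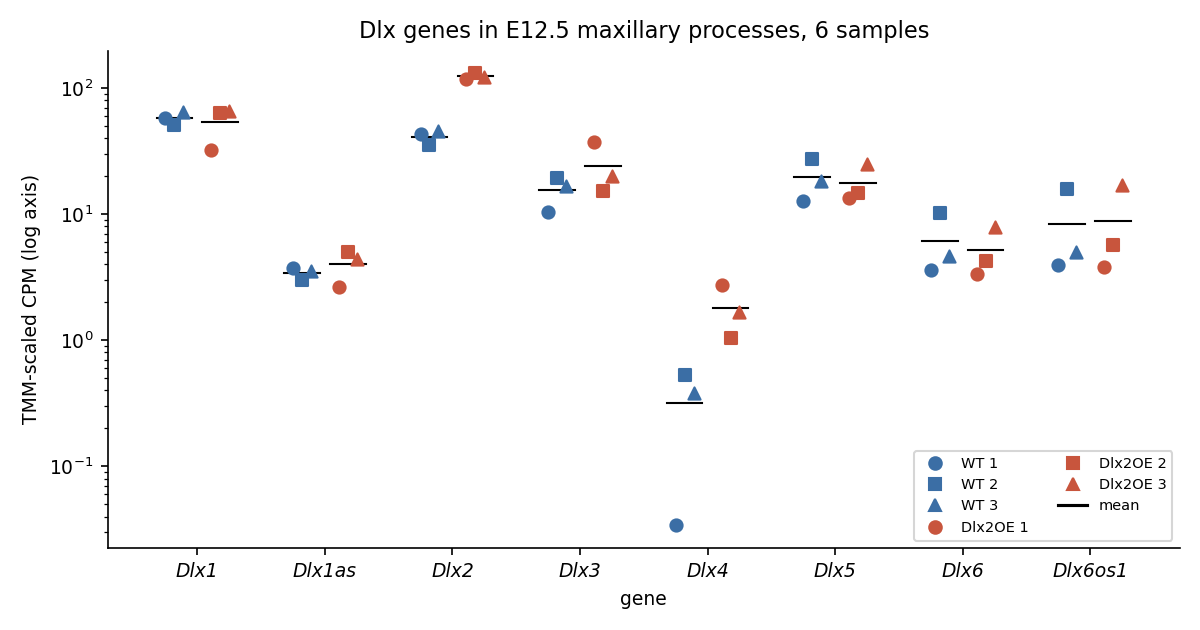
Level of each Dlx gene in each sample, as TMM-scaled CPM on a log axis. Blue symbols are the 3 WT and red symbols the 3 Dlx2OE samples, the symbol shape gives the replicate number, and black lines are group means. The genotypes are separate for Dlx2 (35.0 to 45.2 against 119 to 131 CPM) and for Dlx4, and overlap for the other genes.

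Dlx2 (ENSMUSG00000023391, chr2:71543408-71546754, reverse strand), the overexpressed gene, had 42.9, 35.0 and 45.2 CPM in WT samples 1 to 3 and 119, 131 and 123 CPM in the Dlx2OE samples. The 3 Dlx2OE samples lay close together and far above WT, so the counts match the genotype labels in every sample. On average Dlx2 rose from 41.0 ± 5.32 to 124 ± 5.96 CPM (SD over 3 samples), which is a log2 fold change of 1.60 ± 0.118 (SE, edgeR adjusted p = 0.00241). The Dlx2OE counts hold reads of the cassette and of the endogenous gene, which were not told apart. Cassette reads fall on 996 coding bases out of 2855 bases of exon, so for transcripts this fold change is a low estimate. Ordered by p, Dlx2 came at position 6 of the 17514 genes. In Dlx2OE its SD was 4.80% of the mean, against 30.1% to 80.8% for the other 7 genes.

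Dlx1 (ENSMUSG00000041911, chr2:71528113-71533981, forward strand), the partner of Dlx2 in the maxillary mesenchyme, had 58.2, 51.1 and 64.0 CPM in WT and 32.0, 63.5 and 65.4 CPM in Dlx2OE. Samples 2 and 3 of Dlx2OE lay in the upper part of the WT range or just above it, and sample 1 lay below all others. The log2 fold change of Dlx1 was -0.11 ± 0.250 (SE, edgeR adjusted p = 0.794), and it was 0.15 when Dlx2OE sample 1 was left out. That sample also had the highest summed level of 10 surface epithelium markers, 1847 CPM against 593 and 598 CPM in the other Dlx2OE samples. The part of the epithelium in this result was not tested. In bulk tissue, fewer cells of a type and less RNA per cell cannot be told apart.

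Dlx1as (ENSMUSG00000084946, chr2:71516454-71537891, reverse strand) covers the whole of Dlx1, and 20.6% of its exon sequence is also exon of Dlx1. It had 3.72, 2.99 and 3.56 CPM in WT and 2.67, 5.00 and 4.39 CPM in Dlx2OE. Its log2 fold change was 0.23 ± 0.277 (SE, edgeR adjusted p = 0.600). As for Dlx1, the lowest value was that of Dlx2OE sample 1, and samples 2 and 3 of Dlx2OE were above all WT samples. The counts behave as if made without regard to strand. Reads on the 335 bases of exon that Dlx1 and Dlx1as share were then not counted, and unspliced reads of Dlx1as in the other exons of Dlx1 cannot be told apart from reads of Dlx1.

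The ratios within a sample do not depend on how the samples were scaled, and 5 of them were compared. The ratio of Dlx2 to Dlx1 counts was 0.737, 0.686 and 0.706 in WT, a narrow range, and 3.72, 2.06 and 1.88 in Dlx2OE. On the log2 scale it differed by 1.78 between the genotypes (exact two-sided permutation test, p = 0.1, the smallest possible with 3 against 3, and 0.167 adjusted over the 5 ratios). The ratio of Dlx1as to Dlx1 was 0.0643, 0.0588 and 0.0558 in WT and 0.0839, 0.0790 and 0.0674 in Dlx2OE. All 3 Dlx2OE samples were above all WT samples, with a log2 difference of 0.36 (exact permutation test, p = 0.1, adjusted p = 0.167). The ratio of Dlx2 to Dlx5, which lie in different pairs, had a log2 difference of 1.74 (exact permutation test, p = 0.1, adjusted p = 0.167). Because Dlx2 counts include the cassette, part of the difference in its ratios to Dlx1 and Dlx5 is built into the construct.

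The Dlx5/Dlx6 pair, known for specifying the lower jaw, showed no difference between the genotypes past the spread between samples. Dlx5 (ENSMUSG00000029755, chr6:6877805-6882085, reverse strand) had 12.7, 27.5 and 18.3 CPM in WT and 13.4, 14.7 and 24.8 CPM in Dlx2OE. The highest value was that of WT sample 2, followed by Dlx2OE sample 3, and the groups overlapped over most of their range. The log2 fold change of Dlx5 was -0.15 ± 0.322 (SE, edgeR adjusted p = 0.781).

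Dlx6 (ENSMUSG00000029754, chr6:6863334-6868568, forward strand) had 3.59, 10.2 and 4.62 CPM in WT and 3.38, 4.27 and 7.94 CPM in Dlx2OE. The same samples, WT sample 2 and Dlx2OE sample 3, were the highest. Its log2 fold change was -0.24 ± 0.456 (SE, edgeR adjusted p = 0.745).

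The antisense RNA Dlx6os1 (ENSMUSG00000090063, chr6:6820189-6871592, reverse strand) runs across the whole of Dlx6 without sharing exon sequence with it, so that its unspliced reads in Dlx6 exons cannot be told apart from reads of Dlx6. It had 3.96, 15.9 and 5.04 CPM in WT and 3.81, 5.70 and 17.0 CPM in Dlx2OE. The level varied more among samples of one genotype than between the genotypes, with the highest WT sample 4.02 times the lowest and the highest Dlx2OE sample 4.46 times the lowest. Its log2 fold change was 0.09 ± 0.665 (SE, edgeR adjusted p = 0.939). Without WT sample 2 the log2 fold change was 0.96 and without Dlx2OE sample 3 it was -0.80, and neither passed the test.

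The proportions of the 3 genes of this locus were compared within samples. The ratio of Dlx5 to Dlx6 counts stayed between 2.69 and 3.96 in WT and between 3.12 and 3.97 in Dlx2OE, a log2 difference of 0.06 (exact permutation test, p = 0.8, adjusted p = 0.8). The ratio of Dlx6os1 to Dlx6 was 1.09 to 1.56 in WT and 1.13 to 2.14 in Dlx2OE, with a log2 difference of 0.26 (exact permutation test, p = 0.5, adjusted p = 0.625).

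The order of the samples within each genotype was the same for Dlx5, Dlx6, Dlx6os1 and the summed level of 9 neuronal markers. That sum was 82.2, 359 and 195 CPM in WT and 201, 702 and 1579 CPM in Dlx2OE. Of these 9 markers 0 had an adjusted p under 0.05, beside 6.45% of all genes tested. For the ventral forebrain, another site of Dlx5, Dlx6 and Dlx6os1 expression, the marker Gsx2 was at 0 counts in all 6 samples and Nkx2-1 at 0.111 to 0.605 CPM. The part of neuronal tissue in the spread of these genes was not tested.

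**Figure D2:**
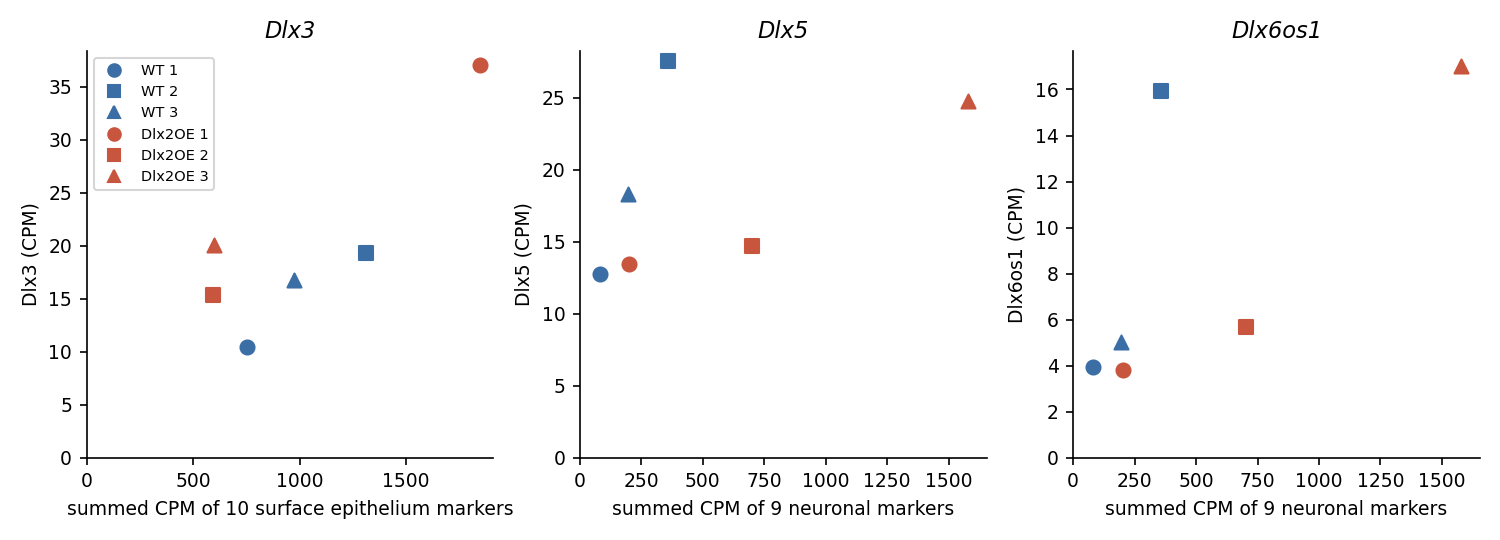
Level of Dlx3 against the summed level of 10 surface epithelium markers, and of Dlx5 and Dlx6os1 against the summed level of 9 neuronal markers, all in CPM on linear axes. Each symbol is 1 sample, WT in blue and Dlx2OE in red. Dlx3 is highest in the sample with the highest sum of the 10 epithelium markers (37.1 and 1847 CPM). Dlx6os1 reaches 15.9 CPM in WT sample 2 and 17.0 CPM in Dlx2OE sample 3 at neuronal sums of 359 and 1579 CPM.

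Dlx3 (ENSMUSG00000001510, chr11:95120119-95125296, forward strand), a regulator of skin and placental differentiation, had 10.5, 19.3 and 16.8 CPM in WT and 37.1, 15.3 and 20.1 CPM in Dlx2OE. Dlx2OE sample 1 stood above all others, and the other 2 lay within or just above the WT range. The log2 fold change of Dlx3 was 0.64 ± 0.347 (SE, edgeR adjusted p = 0.252), and 0.18 without that sample. Within each genotype the samples had the same order in Dlx3 as in the summed epithelium markers, which were 755, 1312 and 975 CPM in WT. Trp63, a defining gene of stratified epithelium, was also highest in Dlx2OE sample 1, at 183 CPM against 72.4 to 112 CPM in the other 5 samples, whereas Epcam was highest in WT sample 2 at 205 CPM. Of the 10 epithelium markers 0 were higher and 2 were lower in Dlx2OE at an adjusted p under 0.05, the simple keratins Krt8 and Krt18. Among all genes tested, 6.45% passed this adjusted p in either direction. The part of the epithelium in the spread of Dlx3 was not tested.

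Dlx4 (ENSMUSG00000020871, chr11:95140447-95146263, reverse strand), the least expressed member, was covered by 1, 16 and 12 read pairs in WT samples 1 to 3 and by 81, 33 and 45 in the Dlx2OE samples. The WT levels were 0.0342, 0.531 and 0.385 CPM, the first of them under the detection floor, and the Dlx2OE levels were 2.73, 1.05 and 1.66 CPM. Every Dlx2OE sample was above every WT sample. Within each genotype Dlx4, like Dlx3, had the same order of samples as the summed epithelium markers, whose part in the level of Dlx4 was not tested. The fitted log2 fold change of 2.50 ± 0.685 (SE) missed the threshold (edgeR adjusted p = 0.0648). With DESeq2 it was 2.52 (adjusted p = 0.00432), and with no filter on low counts edgeR gave 2.48 (adjusted p = 0.0133). Leaving out single samples moved the estimate for Dlx4 between 1.97 and 3.06 and its edgeR adjusted p between 0.0821 and 0.154. Even in Dlx2OE, Dlx4 had 0.555 ± 0.261 CPM per kb of exon (SD, n = 3), or 0.446% to 1.20% of the summed level of the coding Dlx genes.

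**Figure D3:**
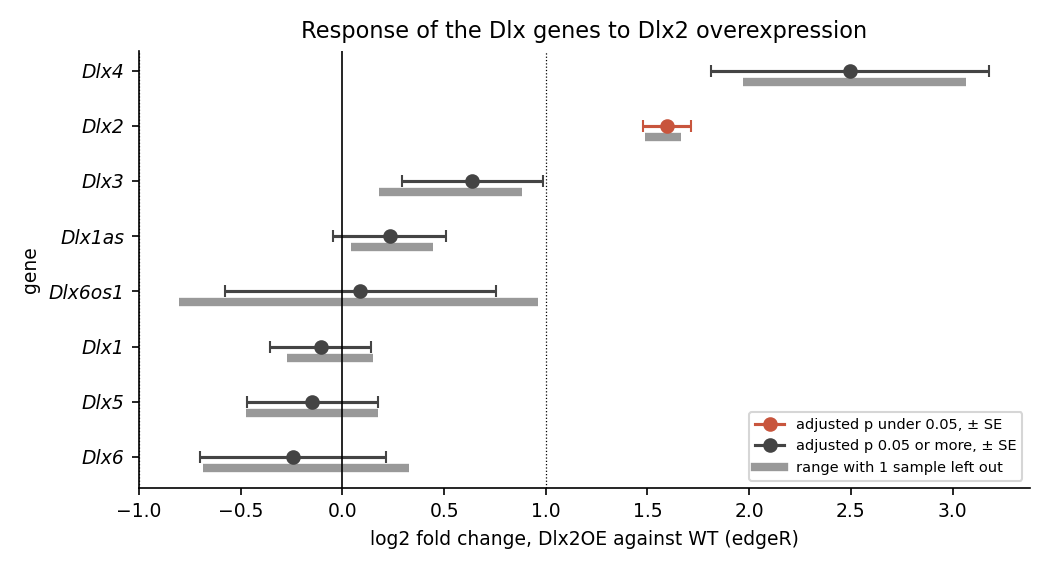
Log2 fold change of each Dlx gene, Dlx2OE against WT, from edgeR's quasi-likelihood test on 3 samples each. Bars are standard errors, grey bands the range of estimates with 1 sample left out, and dotted lines the 2-fold limits. Dlx2 (1.60) is past the test, Dlx4 (2.50) has the widest bar, and the bands of Dlx1, Dlx5, Dlx6 and Dlx6os1 cross 0.

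To compare the genes with each other, CPM was divided by the length of the exon sequence in kb. In WT the order was Dlx2 with 14.4 ± 1.86, Dlx1 with 10.7 ± 1.20, Dlx5 with 8.64 ± 3.30 and Dlx3 with 5.95 ± 1.75 CPM per kb, followed by Dlx6 with 2.59 ± 1.50, Dlx1as with 2.10 ± 0.238, Dlx6os1 with 1.61 ± 1.28 and Dlx4 with 0.0969 ± 0.0781 (SD, n = 3 each). Samples of neighbours in this order overlapped, except between Dlx2 and Dlx1 and between Dlx6os1 and Dlx4. When only exon sequence that no other gene shares was used, Dlx1 had 11.4 CPM per kb and overlapped with Dlx2. In Dlx2OE the order was Dlx2 with 43.5 ± 2.09, Dlx1 with 9.94 ± 3.48, Dlx3 with 9.27 ± 4.38, Dlx5 with 7.80 ± 2.75, Dlx1as with 2.47 ± 0.743, Dlx6 with 2.19 ± 1.02, Dlx6os1 with 1.71 ± 1.38 and Dlx4 with 0.555 ± 0.261 CPM per kb (SD, n = 3 each). Neighbours overlapped here except between Dlx2 and Dlx1 and between Dlx5 and Dlx1as. Cassette reads counted on Dlx2 fall on its 996 coding bases but were divided by its 2855 bases of exon. The Dlx2OE level of Dlx2 per kb is therefore a low estimate.

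Dlx2 made up 40.6%, 26.8% and 35.7% of the summed per-kb level of the 6 coding genes in WT and 59.5%, 63.5% and 55.5% in Dlx2OE. All Dlx2OE samples were above all WT samples, with means of 34.4% ± 7.00 and 59.5% ± 4.04 (SD, n = 3 each, exact permutation test, p = 0.1). The sum of the 6 coding genes was 42.3 ± 4.72 CPM per kb in WT and 73.3 ± 4.06 in Dlx2OE, a ratio of 1.73 (n = 3 each, exact permutation test, p = 0.1). The sum of the 5 coding genes other than Dlx2 was 28.0 ± 5.79 and 29.7 ± 4.37 CPM per kb, a ratio of 1.06 (n = 3 each, exact permutation test, p = 0.8). The difference of the totals lay in Dlx2 itself, and a difference in the rest was not detectable with this number of samples. Cassette reads fall on the 996 coding bases of Dlx2 but were divided by its 2855 bases of exon. The Dlx2 share and the sum of the 6 coding genes in Dlx2OE are therefore low estimates. Part of their difference from WT is built into the construct.

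**Figure D4:**
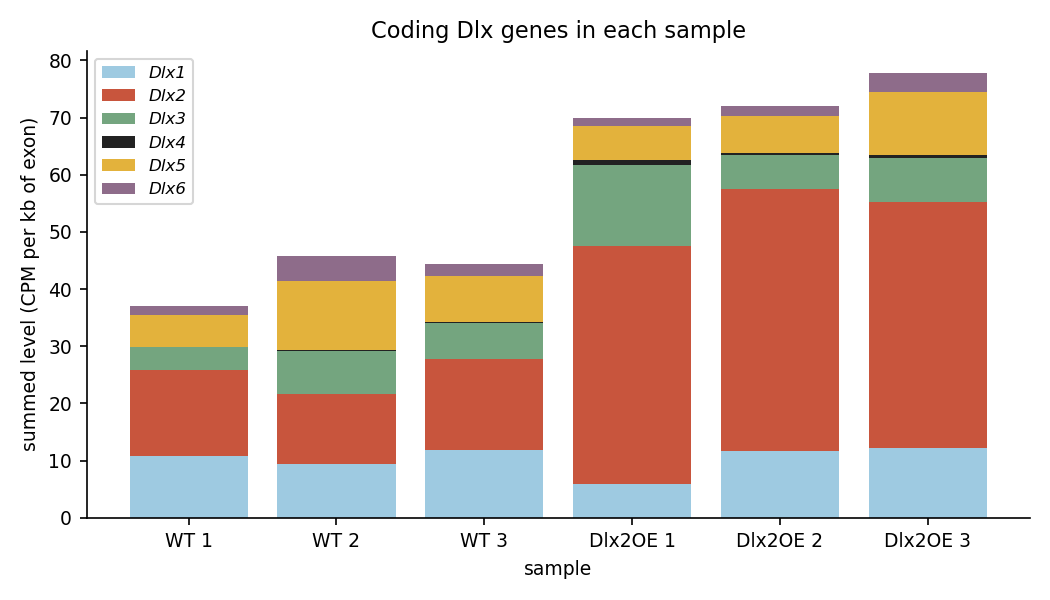
Summed level of the 6 coding Dlx genes in each sample, in CPM per kb of exon, stacked by gene from an axis that starts at 0. The sum is 37.0 to 45.8 in WT and 70.0 to 77.8 in Dlx2OE, and the red part, Dlx2, is the one that grows. The Dlx2OE level of Dlx2 per kb is a low estimate, as cassette reads fall on its coding part alone.

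As a description over the 6 samples, Pearson correlations of log2 CPM among members were highest within the Dlx5/Dlx6 locus, at 0.977 for Dlx5 and Dlx6, 0.971 for Dlx6 and Dlx6os1 and 0.945 for Dlx5 and Dlx6os1. After the genotype means were removed, these values were 0.976, 0.991 and 0.963. Dlx1 and Dlx1as correlated at 0.810, and at 0.956 after removal of the genotype means, and Dlx3 and Dlx4 at 0.857 and 0.867. The values for Dlx1 and Dlx2 were -0.167 and 0.494. The points share their library and tissue composition, and no p is given. Unspliced reads of Dlx6os1 in Dlx6 exons, and of Dlx1as in unshared Dlx1 exons, cannot be told apart from reads of the coding gene. Their part in these correlations was not tested.

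The same measure was used to find the genes most like each member among genes with a mean log2 CPM of at least 1. For Dlx2 these were Cbfa2t2 (r = 0.998), Fanca (0.996) and Chd6 (0.995), of which Cbfa2t2 was itself upregulated, with a log2 fold change of 1.12 (adjusted p = 0.00499 from edgeR's test). A correlation of at least 0.9 with Dlx2 was shown by 890 of 13224 genes, against 40 to 285 for the other members, and the genotype difference is part of these values. The nearest genes of Dlx5 were Shtn1 (0.985), Dlx6 and Acot7 (0.969). Those of Dlx6 were 2900052L18Rik (0.986), Coch (0.979) and Dlx5, and those of Dlx6os1 were Stx1a (0.982), Dlx6 and Apbb1 (0.968). Dlx6 was thus among the 3 nearest genes of both Dlx5 and Dlx6os1 out of 13224 candidates. Unspliced reads of Dlx6os1 can be counted on Dlx6, and their part in this likeness was not tested. For Dlx1 they were St6galnac4 (0.994), Zim1 (0.993) and Cyp20a1 (0.989), and for Dlx1as Tagap1 (0.991), Mum1 (0.990) and Col5a3 (0.990). For Dlx3 they were Nfil3 (0.992), Lrrn1 (0.991) and Castor1 (0.990), and for Dlx4 Lrfn4 (0.994), Otud3 (0.992) and Nckap5 (0.992).

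Because the genes of a pair share enhancers, the genes around each pair were examined too. Within 500 kb of the 3 pairs, 32 of 79 annotated genes were tested, and 2 had an adjusted p under 0.05, a share near the 6.45% of all genes. None of the 10 tested neighbours of Dlx1/Dlx2 passed, and their log2 fold changes ran from -0.22 to 0.39. The gene with the largest difference was Dlx4os (ENSMUSG00000086552, chr11:95145052-95159047, forward strand), an antisense RNA that shares 79 bp of exon with Dlx4. Its counts were 7, 8 and 4 among the WT samples and 37, 79 and 47 among the Dlx2OE samples. All Dlx2OE samples were above WT, and Dlx4os was upregulated with a log2 fold change of 3.10 ± 0.423 (SE, edgeR adjusted p = 0.0116). Leaving out WT sample 1 or WT sample 2 raised its edgeR adjusted p to 0.0522 and 0.0660, with log2 fold changes of 3.19 and 3.29. Dlx4os reached the minimum for testing through its Dlx2OE samples, as Dlx4 did, and was not tested when at least 10 counts were required in every sample. Its unspliced reads cannot be told apart from those of Dlx4 where the genes overlap. The order of samples differed, with sample 1 highest for Dlx4 and sample 2 highest for Dlx4os among the Dlx2OE samples. The other gene was Sem1 (ENSMUSG00000042541, chr6:6557294-6578663), which codes for a small proteasome subunit and lies 305 kb from the midpoint of Dlx5/Dlx6. Sem1 went from 190 ± 52.3 to 95.3 ± 11.3 CPM (SD over 3 samples), a log2 fold change of -0.996 ± 0.208 (SE, edgeR adjusted p = 0.0356) that stayed just inside the 2-fold limit. Its edgeR adjusted p was under 0.05 in 2 of the 6 fits with a sample left out, those without WT sample 3 or Dlx2OE sample 1, and at most 0.142 in the others.

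**Figure D5:**
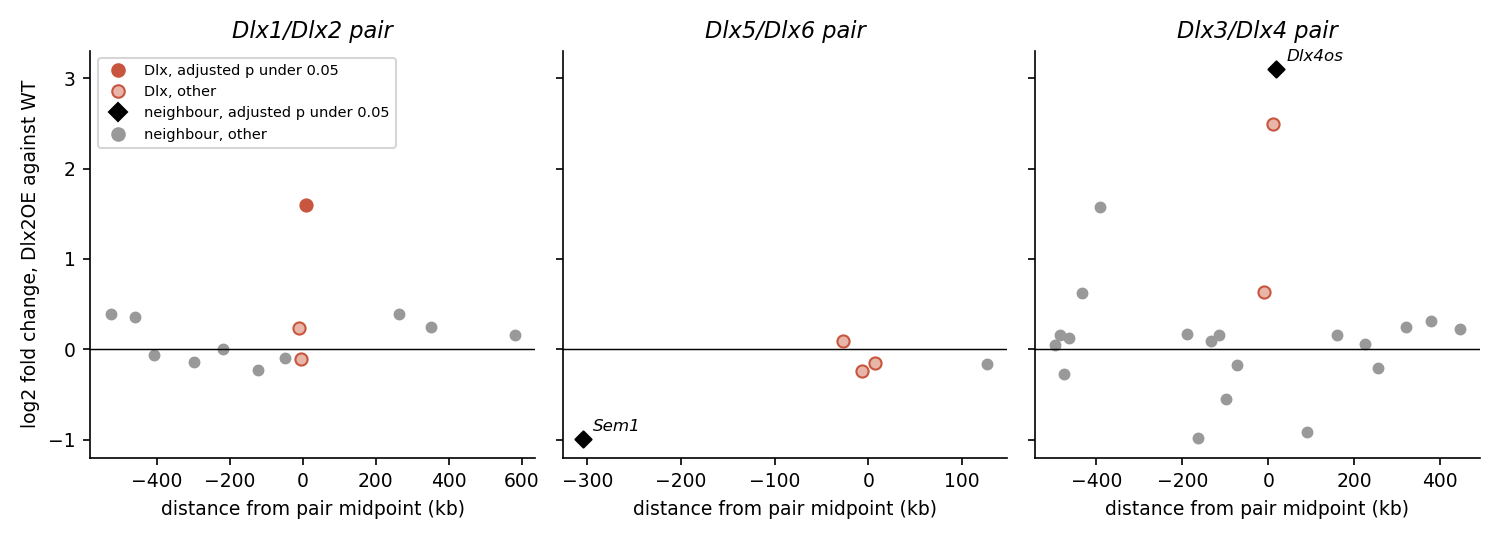
Log2 fold change of the tested genes around each Dlx pair against the distance of the middle of the gene from the middle of the pair, in kb. Red symbols are Dlx members (filled where the adjusted p is under 0.05), black diamonds are neighbours with an adjusted p under 0.05, Dlx4os (3.10) and Sem1 (-0.996), and grey symbols are the other neighbours. Dlx2 (1.60) is the one point past the test at its pair.

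Of 24 genes described as acting upstream of Dlx genes in the first arch, including the endothelin pathway, all were tested, 3 were upregulated and 0 downregulated, beside 1.5% and 1.62% of all genes. The median log2 fold change of the list was 0.17, beside 0.00 over all genes. Those upregulated were Pou3f3, a POU factor of the maxillary mesenchyme, from 46.1 ± 4.28 to 161 ± 38.9 CPM (log2 fold change 1.80, adjusted p = 0.00552), and the AP-2 factors Tfap2a, from 12.8 ± 0.539 to 35.8 ± 13.5 CPM (1.48, adjusted p = 0.0207), and Tfap2b, from 44.5 ± 14.2 to 133 ± 69.9 CPM (1.58, adjusted p = 0.0464 from edgeR's test, SD, n = 3 each). The endothelin ligand Edn1 was at 2.47 ± 0.355 and 1.63 ± 0.528 CPM in WT and Dlx2OE (SD over 3 samples), with a log2 fold change of -0.59 (adjusted p = 0.227 from edgeR's test), and its receptor Ednra had a log2 fold change of 0.34 (adjusted p = 0.0671). Leaving out WT sample 1 or WT sample 2 left 1 upregulated gene of this list, and Pou3f3 kept an adjusted p under 0.05 in all 6 fits with a sample left out (edgeR, at most 0.0427), Tfap2a in 4 and Tfap2b in 2.

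Of 25 genes described as depending on Dlx genes or bound by DLX proteins in arch, forebrain or bone, 22 were tested, 4 were upregulated and 1 downregulated, beside 1.5% and 1.62% of all genes, and the median log2 fold change was 0.25, beside 0.00 over all genes. The 3 not tested were Hand1, Slc32a1 and Bglap. The largest change was in Irx4, an Iroquois homeobox gene, from 0.385 ± 0.124 to 17.6 ± 8.97 CPM (log2 fold change 5.49, adjusted p = 0.00354). With 11, 8 and 16 counts in WT samples 1 to 3, Irx4 reached the minimum for testing through its Dlx2OE samples. It was not tested when at least 10 counts were required in every sample. Msx2 (1.69, adjusted p = 0.0211), a homeobox gene of facial mesenchyme, Alx4 (1.39, adjusted p = 0.0211) and Foxl2 (1.13, adjusted p = 0.0456) rose as well, but Msx2 and Alx4 passed the adjusted p in 3 and Foxl2 in 1 of the 6 edgeR fits with a sample left out. Rgs5, a pericyte gene, had 20.6 ± 4.07 CPM in WT and fell by 1.20 on the log2 scale (adjusted p = 0.0176 from edgeR's test, SD, n = 3), and passed in 4 of these fits. Leaving out WT sample 1, WT sample 2 or Dlx2OE sample 2 left 1 upregulated gene of this list, and Irx4 passed in all 6 fits with a sample left out (edgeR adjusted p at most 0.0339). The lists were drawn up with earlier results of these data known, so their counts are a description.

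The tissue was checked against markers. Facial mesenchyme genes were present in every sample, with Prrx1 at 476 to 630 CPM in WT and 698 to 1009 CPM in Dlx2OE. Of the 9 mesenchyme markers, 2 had an adjusted p under 0.05 and were higher in Dlx2OE (Twist1 and Twist2). The share of all genes tested with such an adjusted p, in either direction, was 6.45%. The summed level of the mesenchyme markers was 2770 to 3372 CPM in WT and 3606 to 3708 CPM in Dlx2OE. Hand2, which marks the mandibular part of the arch, was measured at 9.02, 16.3 and 16.3 CPM in WT and 19.5, 19.8 and 7.35 CPM in Dlx2OE. Its lowest value within WT was in sample 1, where Dlx5 and Dlx6 were the lowest of their group, and its lowest within Dlx2OE was in sample 3, where they were the highest. Gsc, the other mandibular marker tested, had 35.5, 19.0 and 32.0 CPM in WT and 24.0, 22.1 and 18.4 CPM in Dlx2OE. Within WT, Gsc was highest in sample 1 and lowest in sample 2, where Dlx5 and Dlx6 were the highest. The 3 mandibular markers summed to 44.7, 35.3 and 48.3 CPM in WT and 43.5, 41.9 and 25.7 CPM in Dlx2OE. The summed level of 6 red blood cell genes was 3141 to 4213 CPM in WT and 1907 to 2461 CPM in Dlx2OE, with 2 genes lower at an adjusted p under 0.05. The 5 endothelial markers summed to 246 to 378 and 178 to 279 CPM, with 1 gene lower, and the 5 muscle markers to 93.1 to 177 and 34.5 to 106 CPM, with 0 past the test. These counts too stand beside the 6.45% of all genes. The mesenchyme and red blood cell sums moved with genotype, as Dlx2 and Dlx4 did, and their part in those results was not tested.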

How the data were processed

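Poly(A) RNA of E12.5 maxillary processes from 3 WT and 3 Dlx2OE samples was sequenced as paired reads of 150 bases with a kit that does not mark strand. Per the labels and the study's methods, the authors mapped reads to mm10 with STAR 2.7.3a, counted them per gene with HTSeq 0.12.4 in union mode, and deposited raw counts without normalization. The annotation release and strand setting are not given in the sources used here. Of 487 genes whose exons lie wholly under exons of the other strand, 481 had 0 counts in all samples, as when strand is ignored. Under union mode, reads on exons shared by 2 genes are then not counted. The labels and methods give different numbers of littermates, so p-values measure the spread between these RNA samples.

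Symbols, positions and exon lengths came from GENCODE M21 for GRCm38, where 53706 of the 53801 identifiers were found, and promoter windows from RefSeq (GRCm38.p6). The RefSeq table had a window for 3 of the 8 members, Dlx1, Dlx2 and Dlx6os1. The test of counts was that of edgeR 4.0.16, run in R 4.3.3 (filterByExpr with a minimum count of 10, TMM scaling, quasi-likelihood F test on genotype, Benjamini-Hochberg adjustment over 17514 genes). Log2 CPM used a prior count of 2, and ratios of counts had 0.5 added. Single values were tested by exact two-sided permutation of the samples. The floor of 3 counts covers counting error only. Alternatives were DESeq2 1.42.0, RLE factors, library size alone, no filter, a minimum of 10 in each sample, a replicate block, no mitochondrial or haemoglobin genes, calls at any fold change, other lengths, windows and added counts, and each sample left out. The scripts were tested on simulated data. Figures were drawn with matplotlib 3.10.9.

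The members and lists were chosen with earlier results of these data known. Named were all members, the called genes of each network list (at most the 4 with the smallest p), neighbours with an adjusted p under 0.05, the 3 genes with the highest correlation with each member, and markers in summed form with the defining ones. Foxl2, Edn1, Ednra, Krt8, Krt18, Twist1, Twist2 and Gsc fall outside this rule and were named after their values were seen. The study's qPCR, imaging and histology were not analysed here. Some marker genes of the ventral forebrain, and their sum, are not reported here.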

Additional observations from a re-analysis of the deposited data

Results flagged for a closer look

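Read pairs outside annotated exons, which enter no comparison of the Dlx genes, took a larger share in every Dlx2OE sample than in any WT sample. The share was 5.75% in Dlx2OE sample 1, 7.81% in sample 2 and 14.7% in sample 3, against at most 5.43% in WT. Dlx2OE sample 3 also had the highest level of Dlx5, Dlx6 and Dlx6os1 in its group and the fewest read pairs on genes (26155500). Without it, the log2 fold change of Dlx2 was 1.60 and that of Dlx6os1 was -0.80.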

How the results depend on the processing

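Dlx2 was called under every alternative run, with a log2 fold change of 1.49 to 1.66 with a sample left out. Dlx4 passed with DESeq2 (2.52) and with no filter (2.48) and not otherwise, and with at least 10 counts in every sample it was not tested. It ranged from 1.97 to 3.06 with a sample left out. No other member passed under any alternative. With a sample left out, log2 fold changes ranged from -0.27 to 0.15 for Dlx1, 0.04 to 0.45 for Dlx1as, 0.18 to 0.88 for Dlx3, -0.47 to 0.17 for Dlx5, -0.68 to 0.33 for Dlx6 and -0.80 to 0.96 for Dlx6os1. The sign turned for Dlx1 without Dlx2OE sample 1 (0.15), for Dlx5 without WT sample 2 (0.17) or Dlx2OE sample 1 (0.0044), for Dlx6 without WT sample 2 (0.33), and for Dlx6os1 without WT sample 1 (-0.26), WT sample 3 (-0.18) or Dlx2OE sample 3 (-0.80). The log2 difference of Dlx5 to Dlx6 ranged from -0.10 to 0.18, with -0.10 without WT sample 2 and -0.034 without Dlx2OE sample 1. That of Dlx6os1 to Dlx6 ranged from -0.0063, without Dlx2OE sample 3, to 0.46. Those of Dlx2 to Dlx1 (1.47 to 1.96), Dlx1as to Dlx1 (0.29 to 0.45) and Dlx2 to Dlx5 (1.34 to 2.04), and the Dlx2 share (21.3 to 28.2 percentage points), kept their sign.

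Over all genes, 262 were called higher and 284 lower, or 1130 at any fold change against 546 in all at 2-fold. DESeq2 gave 447, 440 and 2428, and no filter gave 506, 497 and 2044. With a sample left out, 39 to 642 genes were higher, 35 to 531 lower and 79 to 2091 past the adjusted p, lowest without WT sample 2. Upstream genes called higher ranged from 1 to 4, with 1 called lower by DESeq2, with no filter and with the replicate block, which left 2 higher. Dlx-dependent genes called higher ranged from 1 to 5 and lower from 0 to 1, with 2 lower by DESeq2. Within 250 kb, 1 neighbour passed. The causes were not tested.

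The replicate numbers showed no sign of pairing the samples. Deviations from group means of same-numbered samples correlated at -0.0718, -0.211 and 0.0731, and those of differently numbered samples at -0.204 to 0.345. With 3 samples a group, these values cannot exclude a pairing. A replicate block gave 202 genes higher, 196 lower and 961 past the adjusted p. It changed no member's call, with 1.60 for Dlx2 (adjusted p = 0.0125 from edgeR's test). Dlx4 and Dlx4os rest on few reads, and with 3 samples a group no exact test of a single value can pass.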
